A study of Mus musculus with 4 samples.

Results

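The phagocyte NADPH oxidase is described here through 6 of its genes, *Cybb*, *Cyba*, *Ncf1*, *Ncf4*, *Rac1* and *Rac2*, taken by name from 25655 genes measured in neutrophils sorted from mouse hearts after myocardial infarction and reperfusion (MI/R). The study asked how loss of *Cd300a*, which encodes an inhibitory immunoreceptor of myeloid cells, acts on neutrophils of the injured heart. Male mice of 8 to 12 weeks, wild-type (WT) C57BL/6J or *Cd300a-/-* on the C57BL/6 background, underwent occlusion of a coronary artery for 60 minutes, and cardiac CD45.2+CD11b+Ly6G+ cells were sorted on day 3 into SiglecF hi and SiglecF lo neutrophils. The 4 groups, WT SiglecF lo, *Cd300a-/-* SiglecF lo, WT SiglecF hi and *Cd300a-/-* SiglecF hi, had 1 RNA-Seq library each, and each library pooled cells of 8 mice. Whether both subsets of a genotype came from the same mice is not given in the sources used here. No library had a replicate, so differences between animals were averaged within a pool and could not be measured. The comparisons of library pairs below carry no test, and their 95% intervals cover counting error only, while a fit of genotype plus subset over the 4 libraries is given after them. The libraries held 9631901 counts for WT SiglecF lo, 10988619 for *Cd300a-/-* SiglecF lo, 19278243 for WT SiglecF hi and 17632989 for *Cd300a-/-* SiglecF hi.

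The oxidase of phagocytes moves electrons from NADPH across a membrane to oxygen and so makes superoxide, from which the other oxidants of the respiratory burst arise. Its catalytic core in the membrane is a heterodimer of gp91phox and p22phox, and it stays silent until cytosolic subunits, p47phox and p40phox among them, and a GTP-bound Rac protein join it. Neutrophils use it to kill microbes and to release extracellular traps, and oxidants from infiltrating neutrophils are a known part of reperfusion injury in the heart.

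The labels were first set against the genes they name. *Cd300a* had 126.7 TPM (transcript abundance from counts divided by transcript length and scaled to the same sum in each library) in WT SiglecF lo and 163 in WT SiglecF hi neutrophils, against 1.06 and 0.74 TPM, or 28 and 27 counts, in the *Cd300a-/-* libraries. *Siglecf* was at 11.3 and 15.3 TPM in the SiglecF lo libraries of WT and *Cd300a-/-* mice and at 354 and 405 TPM in their SiglecF hi libraries. Both genes thus followed the labels. *Ly6g*, which encodes the sorting antigen of neutrophils, had 330.4 TPM for WT SiglecF lo, 889 for *Cd300a-/-* SiglecF lo, 11.1 for WT SiglecF hi and 41.9 for *Cd300a-/-* SiglecF hi, so that its RNA was low in both SiglecF hi libraries.

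*Cybb* encodes gp91phox, the subunit that carries the electrons. Its level was 129 TPM for WT SiglecF lo (95% counting interval 124 to 133), 178 for *Cd300a-/-* SiglecF lo (173 to 183), 227 for WT SiglecF hi (222 to 231) and 244 for *Cd300a-/-* SiglecF hi (239 to 249). The 4 intervals did not overlap, and on the TPM scale both SiglecF hi libraries lay above both SiglecF lo libraries. *Cyba* encodes p22phox, the partner that stabilizes gp91phox and docks p47phox. Its level was 1509.9 TPM for WT SiglecF lo, 1473 for *Cd300a-/-* SiglecF lo, 1602 for WT SiglecF hi and 1461 for *Cd300a-/-* SiglecF hi. WT SiglecF hi neutrophils were highest, while the intervals of WT SiglecF lo and *Cd300a-/-* SiglecF lo overlapped, as did those of the 2 *Cd300a-/-* libraries.

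Among the cytosolic subunits, *Ncf1* encodes p47phox, the organizer that is phosphorylated on activation and binds p22phox. Its level was 532 TPM for WT SiglecF lo (521 to 544), 673 for *Cd300a-/-* SiglecF lo (661 to 685), 684 for WT SiglecF hi (675 to 694) and 789.5 for *Cd300a-/-* SiglecF hi (778 to 801). WT SiglecF lo was the lowest and *Cd300a-/-* SiglecF hi the highest library, with overlapping intervals for the middle pair. *Ncf4* encodes p40phox, which binds phosphatidylinositol 3-phosphate and serves the oxidase at phagosomes. It had 447 TPM for WT SiglecF lo (432 to 462), 450.1 for *Cd300a-/-* SiglecF lo (436 to 465), 286 for WT SiglecF hi (276 to 295) and 349 for *Cd300a-/-* SiglecF hi (338 to 359.8). The order of subsets for *Ncf4* was therefore the opposite of that for *Cybb* and *Ncf1* on this scale, with the 2 SiglecF lo libraries indistinguishable within counting error.

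The Rac proteins are small GTPases, and Rac2 is the form that activates the oxidase in mature neutrophils, whereas Rac1 is made in most tissues. *Rac2* had 767 TPM for WT SiglecF lo (754 to 781), 881 for *Cd300a-/-* SiglecF lo (867 to 895), 601 for WT SiglecF hi (592 to 611) and 652 for *Cd300a-/-* SiglecF hi (642 to 662). *Rac1* had 245 TPM for WT SiglecF lo (238 to 252), 236 for *Cd300a-/-* SiglecF lo (230.2 to 243), 259 for WT SiglecF hi (254 to 265) and 263 for *Cd300a-/-* SiglecF hi (257 to 269). *Rac2* separated all 4 libraries, while for *Rac1* the intervals overlapped between genotypes within each subset. The coding sequences of both genes are alike, and how reads that fit both were assigned is not given in the sources used here.

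**Figure D1:**
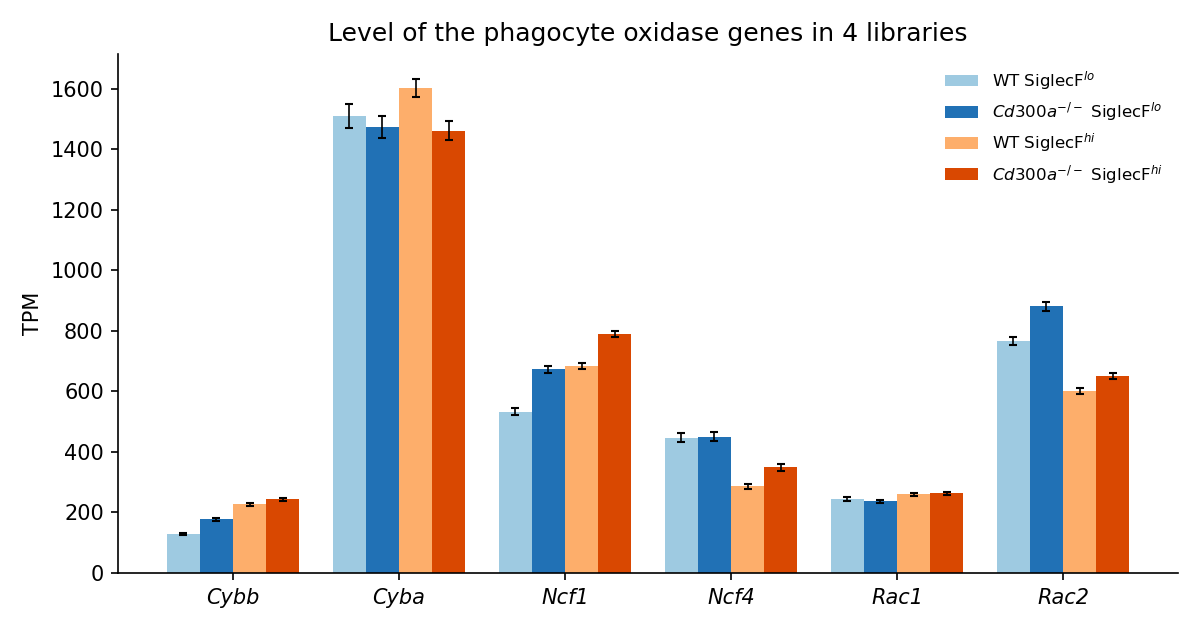
Levels of the oxidase genes in TPM (linear axis from 0) in the 4 libraries; bars are single libraries and error bars are 95% counting intervals. *Cyba* was the most abundant in every library, and *Cybb* was the least abundant of the 6 genes.

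In every library *Cyba* ranked first among the 6 genes and *Cybb* last, with *Ncf4* and then *Rac1* just above *Cybb*. *Rac2* lay above *Ncf1* in both SiglecF lo libraries, at 767 and 881 against 532 and 673 TPM, and below it in both SiglecF hi libraries, at 601 and 652 against 684 and 789.5 TPM. The intervals of neighbours in this order did not overlap in any library. Among all 25655 genes, *Cyba* ranked between 78 and 89 in the 4 libraries and *Cybb* between 668 and 1013. The summed level of the 6 genes was 3629 TPM for WT SiglecF lo, 3891 for *Cd300a-/-* SiglecF lo, 3659.8 for WT SiglecF hi and 3758 for *Cd300a-/-* SiglecF hi. The sum thus differed little while its parts did: the share of *Cybb* in it was 3.55% and 4.57% in WT and *Cd300a-/-* SiglecF lo and 6.20% and 6.49% in the SiglecF hi libraries, and that of *Ncf4* was 12.3% and 11.6% against 7.80% and 9.28%.

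Loss of *Cd300a* was compared within each subset by the log2 ratio of TPM plus 1. In SiglecF lo neutrophils the largest ratio among the 6 genes was that of *Cybb*, 0.46 (0.40 to 0.53), or 1.38-fold higher in *Cd300a-/-* than in WT. *Ncf1* followed at 0.34 (0.30 to 0.38) and *Rac2* at 0.20 (0.16 to 0.23). The subunit that carries electrons, the organizer and the neutrophil Rac were therefore higher beyond counting error, while *Ncf4* at 0.01 (-0.06 to 0.08), *Cyba* at -0.04 (-0.09 to 0.02) and *Rac1* at -0.05 (-0.11 to 0.00) were not separated. None of the 6 genes passed 0.5 in either direction, the size used here to call a gene changed, against 36.3% of the 6523 genes with a mean above 10 TPM (16.4% higher and 19.9% lower), and the median of the 6 ratios was 0.11 beside -0.02 for all tested genes.

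In SiglecF hi neutrophils the largest genotype ratio was that of *Ncf4*, 0.29 (0.22 to 0.35), or 1.22-fold. *Ncf1* was at 0.21 (0.18 to 0.23), *Rac2* at 0.12 (0.08 to 0.15) and *Cybb* at 0.10 (0.06 to 0.15), while *Cyba* was lower in *Cd300a-/-* cells at -0.13 (-0.17 to -0.09) and *Rac1* was at 0.02 (-0.02 to 0.06). Again 0 of the 6 genes passed 0.5, where 6.78% of all tested genes did (3.31% higher and 3.46% lower), and the median was 0.11 beside 0.04 for all tested genes. *Cybb*, *Ncf1* and *Rac2* were thus higher without *Cd300a* beyond counting error in both subsets, as measured by less than the size called a change. With DESeq2 size factors *Cybb* was at 0.52 in SiglecF lo cells, past that size.

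The genotype ratio in SiglecF lo minus that in SiglecF hi was 0.36 for *Cybb* (0.28 to 0.43) and -0.28 for *Ncf4* (-0.37 to -0.18). It was 0.13 for *Ncf1* (0.08 to 0.18), 0.10 for *Cyba* (0.03 to 0.16), 0.08 for *Rac2* (0.04 to 0.13) and -0.07 for *Rac1* (-0.14 to 0.00). None of the 6 passed 0.5, against 34.1% of all tested genes, and whether genotype acted differently by subset was not tested.

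The subsets were compared within each genotype. Because the median gene was itself higher in SiglecF hi neutrophils, by 0.53 in WT and 0.61 in *Cd300a-/-* libraries, each ratio is given as measured and relative to that median. The 10 most abundant genes held 22.8% and 26.7% of all TPM in WT and *Cd300a-/-* SiglecF lo and 12.3% and 11.8% in the SiglecF hi libraries, and their part in the shift was not tested.

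In WT neutrophils *Cybb* was at 0.81 as measured (0.75 to 0.87), or 1.75-fold higher in SiglecF hi, and at 0.28 relative to the median gene. *Ncf4* was lower in SiglecF hi on both scales, at -0.64 (-0.71 to -0.58) and -1.17, and so was *Rac2*, at -0.35 (-0.38 to -0.32) and -0.88. *Ncf1*, *Cyba* and *Rac1* changed sign with the scale, from 0.36 to -0.16, from 0.09 to -0.44 and from 0.08 to -0.44. As measured, 1 of the 6 genes was past 0.5 upward and 1 downward, where 59.4% of tested genes passed in either direction, 51.9% upward and 7.47% downward. Once the shift was removed, 0 were past 0.5 upward and 2 downward, *Ncf4* and *Rac2*, beside 19.3% and 20.9% of all tested genes.

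In *Cd300a-/-* neutrophils *Cybb* was at 0.45 as measured (0.40 to 0.50) and at -0.16 relative to the median gene, so that its direction depended on the scale. *Ncf4* at -0.37 (-0.43 to -0.30) and *Rac2* at -0.43 (-0.47 to -0.40) were again lower in SiglecF hi on both scales, with -0.98 and -1.05 relative to the median. *Ncf1* went from 0.23 to -0.38 and *Rac1* from 0.15 to -0.46, while *Cyba* was at -0.01 and -0.63. As measured, 0 of the 6 genes passed 0.5, against 64.6% of tested genes, 56.6% upward and 7.97% downward. After removal of the shift, 3 were lower and 0 higher past 0.5, beside 23.6% lower and 21.2% higher among all tested genes. The lower level of *Ncf4* and *Rac2* in SiglecF hi neutrophils thus held in both genotypes and on both scales.

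**Figure D2:**
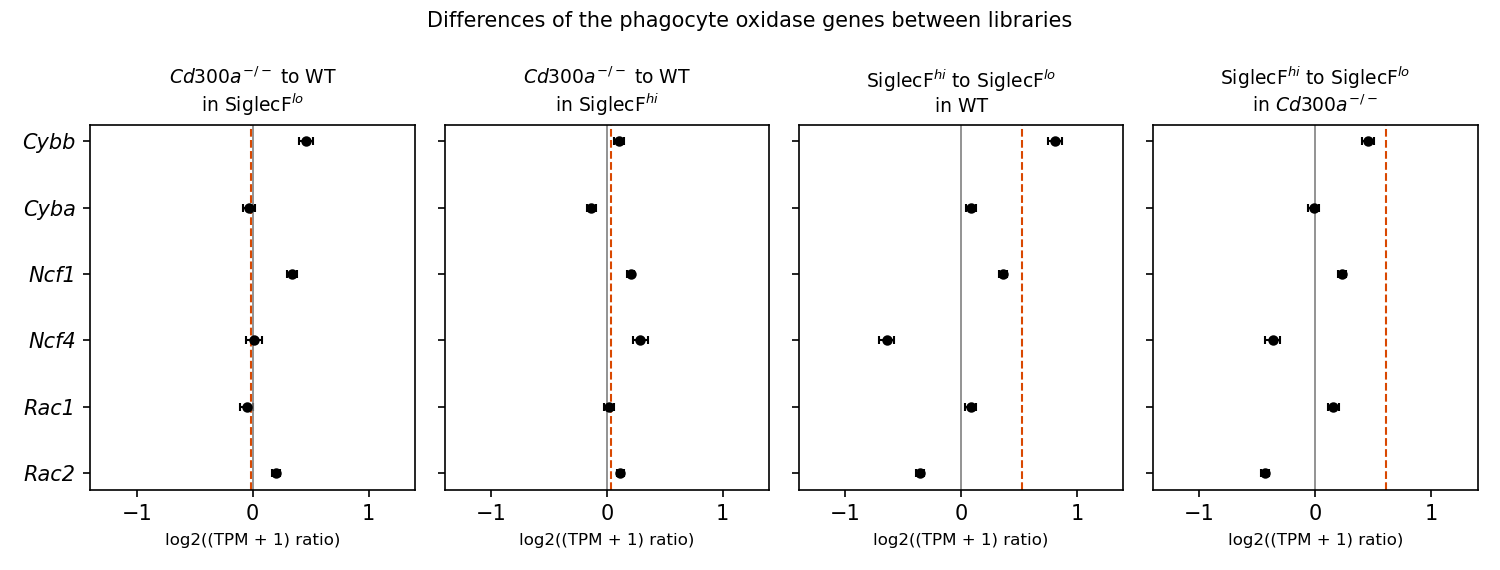
Log2 ratio of TPM plus 1 for each oxidase gene in the 4 comparisons; points are ratios of single libraries, bars are 95% counting intervals, the grey line is 0 and the dashed line is the median of all tested genes. In the subset comparisons *Ncf4* and *Rac2* lie below 0, and *Cybb* lies above the dashed line in WT and below it in *Cd300a-/-* libraries.

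A fit of genotype plus subset to the counts of all 4 libraries, by edgeR's quasi-likelihood test with TMM scaling, tested each factor with the other held as a block. It left 1 residual degree of freedom and took the genotype effect to be equal in both subsets, so that any difference between subsets entered its spread, and it was chosen after the data were seen. The spread of each gene was moderated with 135 prior degrees of freedom, so that the p-values rest almost wholly on spread borrowed from other genes. For genotype, 0 of the 6 genes were called at an adjusted p under 0.05 beside 0.935% of the 6523 genes, and 0 at an unadjusted one beside 11.6%, with adjusted p from 0.471 to 0.987. For subset, 4 of the 6 were called, all lower in SiglecF hi, beside 24.9% of all tested genes, 9.20% higher and 15.7% lower, and 4 at an unadjusted p beside 34.7%. *Rac2* was at -0.95 (edgeR adjusted p = 1.76e-08) and *Ncf4* at -1.07 (edgeR adjusted p = 7.98e-07), lower in SiglecF hi in both genotypes on every scale given here. *Cyba* was at -0.52 (edgeR adjusted p = 0.0108) and *Rac1* at -0.44 (edgeR adjusted p = 0.039), but without TMM scaling their ratios as measured were 0.09 and 0.08 in WT and -0.01 and 0.15 in *Cd300a-/-* libraries, so that the direction in WT, and for *Rac1* in both genotypes, differed between these scales. *Ncf1* at -0.26 and *Cybb* at 0.07 were not called (edgeR adjusted p = 0.19 and 0.796).

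Ratios between genes of the same library do not depend on how libraries are scaled. The ratio of *Cybb* to *Cyba*, the chains of the membrane heterodimer, was 0.0853 for WT SiglecF lo, 0.121 for *Cd300a-/-* SiglecF lo, 0.142 for WT SiglecF hi and 0.167 for *Cd300a-/-* SiglecF hi. The ratio of *Cybb* to *Ncf4* was 0.289, 0.395, 0.794 and 0.699 in the same order. Transcripts of the catalytic subunit were thus higher relative to both others in SiglecF hi cells, by 1.66-fold against *Cyba* and 2.75-fold against *Ncf4* in WT and by 1.38-fold and 1.77-fold in *Cd300a-/-* neutrophils.

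Within SiglecF lo neutrophils, loss of *Cd300a* went with a higher *Cybb* to *Cyba* ratio, by 0.50 on the log2 scale (0.42 to 0.58), and a higher *Cybb* to *Ncf4* ratio, by 0.45 (0.36 to 0.55). Within SiglecF hi neutrophils the first was higher by 0.24 (0.18 to 0.30) and the second changed by -0.18 (-0.26 to -0.11). The genotypes were thus ordered alike in both subsets for *Cybb* over *Cyba* and in opposite ways for *Cybb* over *Ncf4*.

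Among cytosolic subunits, the ratio of *Ncf1* to *Ncf4* was 1.19 for WT SiglecF lo, 1.49 for *Cd300a-/-* SiglecF lo, 2.40 for WT SiglecF hi and 2.26 for *Cd300a-/-* SiglecF hi. The ratio of *Rac2* to *Rac1* was 3.13, 3.73, 2.32 and 2.48. The neutrophil form of Rac exceeded the common form in every library, by more in SiglecF lo than in SiglecF hi cells and, within each subset, by more without *Cd300a*.

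**Figure D3:**
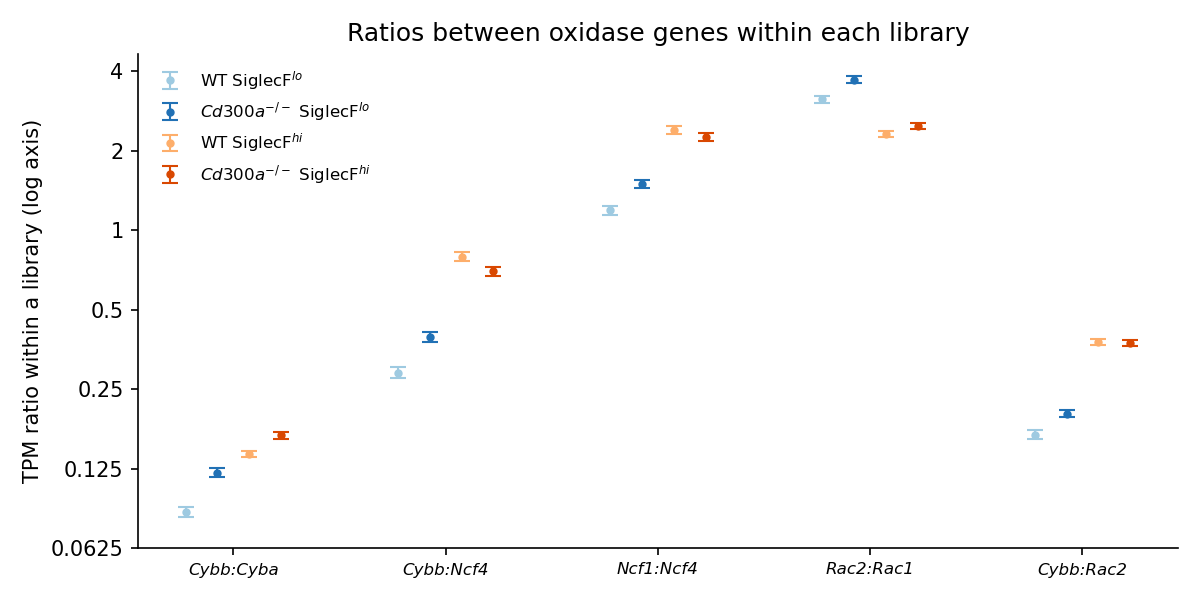
Ratio of TPM between pairs of oxidase genes within each library (log axis); points are single libraries and bars are 95% counting intervals. The ratios of *Cybb* and of *Ncf1* to *Ncf4* lie higher in SiglecF hi than in SiglecF lo libraries.

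The subset contrast coincided with markers of other cells, and in bulk RNA fewer cells of a type and less RNA per cell cannot be told apart. The 7 neutrophil markers, all detected, summed to 154341 TPM for WT SiglecF lo, 202675 for *Cd300a-/-* SiglecF lo, 27432 for WT SiglecF hi and 32371 for *Cd300a-/-* SiglecF hi, with *S100a9* the most abundant. The 10 macrophage markers, all detected, summed to 6156 TPM, 5335 TPM, 16919 TPM and 15615 TPM in that order, with *Apoe* the most abundant, and none of them was at 0. The sort for CD45.2+CD11b+Ly6G+ cells should remove macrophages, which lack Ly6G. Macrophages express the oxidase too, and the part of these cells in the levels of *Cybb*, *Ncf4* and *Rac2* was not tested.

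The 7 late granulocyte precursor markers, led by *Lcn2* in their mean over the 4 libraries and by *Chil3* in WT SiglecF hi, summed to 5392 TPM, 12423 TPM, 955 TPM and 1736 TPM in the same order, so that the sum was higher in *Cd300a-/-* than in WT libraries of both subsets. In each subset 5 of the 7 were higher and 0 lower past 0.5 without *Cd300a*. Among all tested genes 16.4% were higher and 19.9% lower in SiglecF lo, and 3.31% and 3.46% in SiglecF hi cells. *Chil3* was not higher, at 0.00 (-0.06 to 0.05) in SiglecF lo and -0.12 (-0.16 to -0.07) in SiglecF hi cells. The 4 monocyte markers, led by *Ly6c2*, summed to 1102 TPM, 940.3 TPM, 669.5 TPM and 569 TPM. *Ly6c2* alone had 756 TPM, 706 TPM, 270 TPM and 226 TPM, and the list was split between subsets. As measured and by sign alone, 1 was higher and 3 lower in SiglecF hi cells of WT. In *Cd300a-/-* mice 3 were higher and 1 lower. *F13a1* was higher in SiglecF hi cells, at 0.87 in WT and 0.74 in *Cd300a-/-* libraries. The 4 markers of fibroblasts, which lack CD45 and should be removed by the sort, were led by *Dcn* and summed to 677 TPM, 622 TPM, 1457 TPM and 1020.3 TPM. Their part in the differences of the oxidase genes was likewise not tested.

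The 4 endothelial markers, led by *Pecam1*, summed to 103 TPM for WT SiglecF lo, 39.9 for *Cd300a-/-* SiglecF lo, 57.5 for WT SiglecF hi and 78.9 for *Cd300a-/-* SiglecF hi. The 4 cardiomyocyte markers, led by *Tnnt2* in their mean over the 4 libraries and by *Actc1* in both SiglecF lo libraries, stayed at or below 33.8 TPM in sum. Of 7 eosinophil markers only *Ear2* had a mean above 10 TPM, and *Epx*, a defining gene of eosinophils, was at 0 in all 4 libraries. The 3 T cell markers, led by *Cd3d*, summed to at most 4.13 TPM, with *Trac* at 0 throughout.

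Genes around the complex were counted past 0.5 in the same way. The shares of all tested genes to set beside each list are 16.4% higher and 19.9% lower without *Cd300a* in SiglecF lo and 3.31% and 3.46% in SiglecF hi cells. Between subsets they are, as measured, 51.9% higher and 7.47% lower in SiglecF hi cells of WT and 56.6% and 7.97% in *Cd300a-/-* mice, and, relative to the median gene, 19.3% and 20.9% in WT and 21.2% and 23.6% in *Cd300a-/-* mice.

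Partners of the complex were described through 7 genes, all with a mean above 10 TPM. The most abundant was *P4hb*, a protein disulfide isomerase that binds p47phox, with 274 TPM for WT SiglecF lo, 231 for *Cd300a-/-* SiglecF lo, 458 for WT SiglecF hi and 425 for *Cd300a-/-* SiglecF hi. It was higher in SiglecF hi cells, at 0.74 in WT and 0.88 in *Cd300a-/-* as measured and at 0.21 and 0.26 relative to the median gene.

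*Hvcn1*, which encodes the proton channel that balances the charge moved by the oxidase, had 10.7 TPM for WT SiglecF lo, 6.68 for *Cd300a-/-* SiglecF lo, 43.0 for WT SiglecF hi and 33.9 for *Cd300a-/-* SiglecF hi. Its subset ratio was 1.91 in WT (1.71 to 2.11) and 2.19 in *Cd300a-/-* (1.96 to 2.41), or 1.38 and 1.57 relative to the median gene. *Hvcn1* was lower without *Cd300a* in SiglecF lo cells, at -0.61 (-0.89 to -0.33), and in SiglecF hi cells, at -0.33 (-0.45 to -0.22). *Cybc1*, the chaperone of the gp91phox and p22phox dimer, was higher in both, the same direction as *Cybb*. Its genotype ratio was 0.52 (0.36 to 0.68) in SiglecF lo and 0.45 (0.35 to 0.56) in SiglecF hi cells.

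Of the 7 partners, 1 was higher and 1 lower past 0.5 without *Cd300a* in SiglecF lo cells and 0 passed in SiglecF hi cells. Between subsets as measured, 5 were higher and 0 lower in SiglecF hi than in SiglecF lo cells of WT and 3 higher and 0 lower in *Cd300a-/-* mice. With the shift removed, 1 was higher and 1 lower in WT and 1 was higher and 0 lower in *Cd300a-/-* mice. *Pla2g4a*, the cytosolic phospholipase A2, was at 0.92 and 0.71 in the 2 subset comparisons as measured and at 0.39 and 0.09 relative to the median. *Nrros*, a negative regulator of the oxidase, was at 0.61 (0.53 to 0.69) between subsets in WT as measured and at 0.09 relative to the median. In *Cd300a-/-* libraries it was at 0.31 (0.24 to 0.38) as measured and at -0.30 relative to the median. Beside -0.02 and 0.04 for all tested genes, the median genotype ratio of the partners was -0.20 in SiglecF lo and 0.00 in SiglecF hi cells, and their median subset ratio was 0.61 in WT and 0.48 in *Cd300a-/-* libraries as measured and 0.09 and -0.13 relative to the median gene. None of 9 genes of other NADPH oxidases had a mean above 10 TPM, and their sum was at most 3.52 TPM in any library, so that *Cybb* was the catalytic subunit with nearly all transcripts of the family. Their most abundant gene by the mean over the 4 libraries was *Nox4*, at 0.98 to 1.50 TPM, though *Nox1* in *Cd300a-/-* SiglecF lo and *Duox1* in *Cd300a-/-* SiglecF hi libraries lay above it.

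Rac is switched on by exchange factors and off by GTPase-activating proteins, and it is held in the cytosol by guanine nucleotide dissociation inhibitors. Of 9 exchange factors 5 had a mean above 10 TPM, and 1 of these, *Dock5*, was higher past 0.5 without *Cd300a* in SiglecF lo cells, at 0.67 (0.54 to 0.80), with 0 past it in SiglecF hi cells. The most abundant, *Vav1*, had 135 and 159 TPM in the WT and *Cd300a-/-* SiglecF lo and 213 and 250.4 TPM in the SiglecF hi libraries, or 0.65 in both subset comparisons and 0.12 and 0.04 relative to the median. The exchange factors had medians of 0.31 and 0.06 between genotypes, and between subsets of 0.65 and 0.45 as measured and 0.12 and -0.17 relative to the median. As measured, 3 of the 5 were higher in SiglecF hi cells of WT and 2 in *Cd300a-/-* mice, with 0 lower. Relative to the median, 0 were higher and 2 lower in each genotype.

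Of 8 genes for GTPase-activating proteins and dissociation inhibitors, 5 had a mean above 10 TPM. *Abr* at 0.53 (0.46 to 0.61) and *Arhgap15* at 0.51 (0.36 to 0.66) were the 2 past 0.5 without *Cd300a* in SiglecF lo cells, both higher, with 0 in SiglecF hi cells. As a list these 5 genes had medians of 0.35 and -0.09 between genotypes, and between subsets of 0.16 and -0.55 as measured and -0.37 and -1.17 relative to the median. *Arhgdib*, the dissociation inhibitor of blood cells and the most abundant, had 1136 and 1272 TPM in the SiglecF lo and 761 and 743 TPM in the SiglecF hi libraries, so that its subset ratio was -0.58 in WT and -0.77 in *Cd300a-/-*, beside -0.35 and -0.43 for *Rac2*. As measured, 1 of the 5 was lower in SiglecF hi cells of WT and 3 in *Cd300a-/-* mice, and relative to the median 2 and 4 were, with 0 higher on either scale.

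Of 14 kinases and kinase subunits that act before the oxidase, 12 had a mean above 10 TPM, and 4 were higher and 0 lower past 0.5 without *Cd300a* in SiglecF lo neutrophils, beside 16.4% higher and 19.9% lower among all tested genes, with a median of 0.27. These were *Prkcb* at 0.76 (0.64 to 0.88), a protein kinase C that phosphorylates p47phox, *Syk* at 0.61 (0.56 to 0.66), *Mapk14* at 0.57 (0.48 to 0.66) and *Pik3r5* at 0.57 (0.45 to 0.69). In SiglecF hi neutrophils 0 of the 12 passed, with a median of 0.07. *Syk*, the most abundant by its mean over the 4 libraries though below *Akt1* in both WT libraries, had 164 and 251 TPM in WT and *Cd300a-/-* SiglecF lo and 191 and 228 TPM in SiglecF hi libraries. Between subsets the kinases had medians of 0.28 in WT and 0.05 in *Cd300a-/-* libraries as measured and -0.25 and -0.57 relative to the median gene. As measured, 2 of the 12 were higher in SiglecF hi cells of WT and 1 in *Cd300a-/-* mice, with 0 lower. With the shift removed the direction turned, and 2 were lower in WT and 6 in *Cd300a-/-* mice, with 0 higher.

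The oxidase consumes NADPH, which the pentose phosphate pathway regenerates. Of 7 genes for NADPH supply 6 had a mean above 10 TPM. *G6pdx*, whose enzyme is the entry to the pathway, had 182 TPM for WT SiglecF lo, 379.5 for *Cd300a-/-* SiglecF lo, 105 for WT SiglecF hi and 118 for *Cd300a-/-* SiglecF hi. *Tkt*, transketolase, had 204 TPM, 396 TPM, 178 TPM and 173 TPM in that order. Both were higher without *Cd300a* in SiglecF lo cells, by 1.06 (0.99 to 1.12) and 0.95 (0.90 to 1.01), the 2 of 6 past 0.5, while 0 passed in SiglecF hi cells. These differences exceeded that of *Cybb*, the member with the largest ratio in the same comparison.

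Between subsets, *Taldo1*, transaldolase and the most abundant of the list, had 1577 and 1707 TPM in the SiglecF lo and 669 and 651 TPM in the SiglecF hi libraries, a ratio of -1.24 in WT and -1.39 in *Cd300a-/-*. *Idh1*, a cytosolic isocitrate dehydrogenase that also makes NADPH, went the other way, at 1.16 and 1.02 as measured and 0.64 and 0.40 relative to the median. *Pgls*, which encodes a lactonase of the pentose phosphate pathway, did so too, at 0.92 and 0.69 as measured and 0.40 and 0.07 relative to the median. As measured, 3 of the 6 were lower and 2 higher in SiglecF hi cells of WT and 4 lower and 2 higher in *Cd300a-/-* mice, and with the shift removed 4 were lower and 1 higher in WT and 4 lower and 0 higher in *Cd300a-/-* mice. The median of the list was 0.19 and -0.04 between genotypes in SiglecF lo and SiglecF hi cells, and between subsets it was -0.39 and -1.02 as measured and -0.92 and -1.64 relative to the median gene.

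Superoxide is turned into peroxide by superoxide dismutases and peroxide into water by catalase. Of 6 such genes 3 had a mean above 10 TPM, and *Epx* and *Lpo* were at 0 in all libraries, while *Mpo*, the peroxidase that neutrophils transcribe before they mature, was at most 1.73 TPM. *Sod1*, the most abundant, had 409 and 279 TPM in WT and *Cd300a-/-* SiglecF lo and 668 and 614 TPM in the SiglecF hi libraries. In SiglecF lo cells *Sod1* was lower without *Cd300a*, at -0.55 (-0.67 to -0.43), and *Cat* higher, at 0.52 (0.31 to 0.72), so that 1 was past 0.5 each way, with 0 in SiglecF hi cells. The 3 genes had medians of -0.16 and -0.12 between genotypes, and between subsets of 0.71 and 0.90 as measured and 0.18 and 0.28 once the shift was removed. As measured, 2 of the 3 were higher in SiglecF hi cells of WT and 3 in *Cd300a-/-* mice, against 1 in each genotype with the shift removed, and 0 were lower.

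Of 10 transcription factors known to act on oxidase promoters, 8 had a mean above 10 TPM, and 1, *Cebpe* at 0.57 (0.15 to 0.98), was past 0.5 without *Cd300a* in SiglecF lo cells, with 0 in SiglecF hi cells. *Spi1*, which encodes PU.1, had 611 and 693 TPM in WT and *Cd300a-/-* SiglecF lo and 395 and 429.8 TPM in SiglecF hi libraries, a subset ratio of -0.63 in WT (-0.68 to -0.58) and -0.69 in *Cd300a-/-* (-0.73 to -0.64), the direction of *Ncf4* and *Rac2*. *Irf8*, at 28.8 and 24.8 TPM in SiglecF lo and 56.7 and 44.4 TPM in SiglecF hi libraries, was at 0.95 in WT and 0.82 in *Cd300a-/-* in the subset comparison as measured and at 0.42 and 0.20 relative to the median, and its genotype ratios were -0.21 and -0.35. *Cebpa*, at 43.9 and 60.8 TPM in SiglecF lo and 146 and 124 TPM in SiglecF hi libraries, had the largest subset ratio of the list as measured, 1.72 in WT (1.59 to 1.84) and 1.01 in *Cd300a-/-* (0.90 to 1.12), or 1.19 and 0.40 relative to the median. The 8 factors had medians of 0.12 and 0.10 between genotypes, and between subsets of 0.54 and 0.44 as measured and 0.01 and -0.18 relative to the median gene. *Cebpb*, the most abundant, was at 2408 to 3072 TPM. As measured, 4 factors were higher and 1 lower in SiglecF hi cells of each genotype, and with the shift removed 1 was higher and 2 lower in WT and 0 higher and 2 lower in *Cd300a-/-* mice.

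Profiles of the 6 genes over the 4 libraries were compared by the Euclidean distance of log2 levels centred on each gene's mean, a description over only 4 points, each of them 1 library. The closest pair of members was *Cyba* and *Rac1* at 0.14, then *Ncf4* and *Rac2* at 0.21, and the farthest was *Cybb* and *Ncf4* at 1.19. The complex thus held no common profile. The genes nearest to *Cybb* were *Eea1*, *Sec24c* and *Tlk2*, at 0.02 to 0.03. For *Cyba* they were *Sra1*, *Med7* and *Mospd3*, for *Ncf1* *Fbrs*, *Fam102a* and *Irf2bp2*, for *Ncf4* *Ndel1*, *Def6* and *Nampt*, for *Rac1* *Zfp868*, *Lamtor4* and *Atf7ip*, and for *Rac2* *Slc25a44* and *Rnf149*, all at distances of 0.02 to 0.06. A distance below 0.2 was common, with 48 genes so near to *Ncf4*, 109 to *Rac2* and 265 to *Ncf1*.

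On the GRCm39 build *Cybb* (ENSMUSG00000015340) lies on the minus strand of the X chromosome from 9301491 to 9354010 and *Cyba* (ENSMUSG00000006519) on that of chromosome 8 from 123151515 to 123159669. *Ncf1* (ENSMUSG00000015950) and *Rac1* (ENSMUSG00000001847) share chromosome 5, at 134248907 to 134258479 and 143489389 to 143513791, both on the minus strand. *Ncf4* (ENSMUSG00000071715) and *Rac2* (ENSMUSG00000033220), the members lower in SiglecF hi cells of both genotypes on every scale given here, both lie on chromosome 15. *Ncf4* is on the plus strand from 78129001 to 78146780 and *Rac2* on the minus strand from 78443367 to 78456983, 297 kb apart. *Ncf1* overlaps *Gtf2ird2* and *Rac1* overlaps *Daglb*, each on the opposite strand, and use of strand in counting is not given in the sources used here. *Gtf2ird2* had 137 to 693 counts where *Ncf1* had 8439 to 19144, and *Daglb* had 280 to 1129 where *Rac1* had 5305 to 9598.

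Of 10 genes between *Ncf4* and *Rac2*, 3 had a mean above 10 TPM. *Csf2rb*, the common beta chain of cytokine receptors, was at -0.11 in WT and -0.41 in *Cd300a-/-* neutrophils in the subset comparison as measured and at -0.63 and -1.02 relative to the median gene. Its neighbour *Csf2rb2* was at 0.35 and -0.17 as measured and at -0.18 and -0.78 relative to the median, and *Mpst* at -0.13 and -0.25 and at -0.66 and -0.86. These 3 genes were chosen for their position after the values were seen.

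RefSeq promoter windows, 250 bases before to 50 after the start of a gene, were matched for 3 of the 6 genes, *Cybb*, *Cyba* and *Ncf1*. They were searched on both strands for GAGGAA, the core bound by PU.1, for GAAA followed by any 2 bases and GAAA, the element of interferon regulatory factors, for CCAAT and for TATAAA, motifs chosen after the values were seen. The spaced GAAA pair was found in 3.43% of 32817 mouse promoters of the same length and in 2 of these 3, at -168, -124 and -29 of *Cybb* and at -82 of *Ncf1*, counted from the first base of the match to the start of the gene. *Cybb* also held CCAAT at -56, found in 37.4% of promoters, and GAGGAA on the other strand at 10 bases into the gene, found in 28.3%, and *Cyba* held none of the 4, TATAAA being in 13.6%. The bases nearest to the start are shown for *Cybb* and *Ncf1*, the members with the largest ratios between genotypes in SiglecF lo neutrophils, from GRCm38.p6, chrX:9469325-9469474 and chr5:134229626-134229775, both on the minus strand, with matches to the searched letters in capitals.
Cybb: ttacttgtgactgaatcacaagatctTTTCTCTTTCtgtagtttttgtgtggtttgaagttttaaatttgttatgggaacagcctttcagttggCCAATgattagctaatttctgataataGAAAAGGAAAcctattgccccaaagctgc
Ncf1: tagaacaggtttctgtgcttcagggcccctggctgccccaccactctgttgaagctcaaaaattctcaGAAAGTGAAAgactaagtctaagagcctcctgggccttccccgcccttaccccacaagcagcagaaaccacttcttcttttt
The matches describe these letters only, and neither binding nor activity was measured.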

How the data were processed

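Sorted cells of 8 mice were pooled per library, and poly(A) RNA was sequenced as paired ends. The authors used CLC Genomics Workbench, and the submitters' processing notes name the GRCm39 build. The deposited files give, per gene, the count, the RPKM, the TPM, which the authors calculated, and a signal headed CPM. The deposited signal summed to a different total in each library and was not used, nor was the deposited RPKM. Totals were 9631901 to 19278243 counts, which sets the counting intervals.

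Ratios were log2 of TPM plus 1, with 95% Poisson counting intervals, for 6523 genes with a mean above 10 TPM. A gene was called past 0.5. With 1 library per group, pairs of libraries carry no test. An additive fit of genotype and subset over the 4 libraries, by edgeR's quasi-likelihood test with Benjamini-Hochberg adjustment, was added after the data were seen. Alternatives were a pseudocount of 0.1, other TPM limits, a threshold of 1, centring on the median, and scaling by edgeR 4.0.16 TMM or DESeq2 1.42.0 size factors in R 4.3.3. Scripts in Python 3.11.15 were tested on simulated data. The members and lists were chosen with earlier results of these data known. Named genes were the members, *Cd300a*, *Siglecf* and *Ly6g*, the most abundant gene of each list, up to 4 genes per list past 0.5 with intervals leaving out 0, and the 3 genes nearest to each member. Some genes these rules took are not reported here.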

Additional observations from a re-analysis of the deposited data

Results flagged for a closer look

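Among the members and the other named genes, 7 had genotype ratios of opposite sign in the 2 subsets, each with a counting interval that left out 0, and no member was among them. The share of all tested genes with such opposite signs was not counted. Large differences between subsets were common, with 34.1% of the 6523 tested genes past 0.5 in either direction. The genotype ratio in SiglecF lo minus that in SiglecF hi neutrophils was 0.87 for *Cat*, 0.71 for *Arhgap25*, 0.71 for *Cebpa* and 0.62 for *Abr*, all higher without *Cd300a* in SiglecF lo and lower in SiglecF hi cells. It was -0.42 for *Irf1* and -0.25 for *Sod2*, which went the opposite way. The endothelial marker *Pecam1* had the largest difference, -2.20, with a genotype ratio of -1.82 (-1.98 to -1.66) in SiglecF lo and 0.38 (0.25 to 0.50) in SiglecF hi cells. Its subset ratio also changed sign, at -1.27 in WT and 0.92 in *Cd300a-/-* libraries. With 1 library per group these differences were not tested.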

How the results depend on the processing

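No paired analysis was possible because the groups compared share fewer than 2 replicate numbers; the fit of genotype plus subset, which holds the other factor as a block, called 0 of the 6 genes for genotype and 4 for subset. With 1 pool per group, depth limited only the counting error, and the spread between animals is unknown. Of the 6 oxidase genes, 1, *Cybb* at 0.52, passed 0.5 without *Cd300a* in SiglecF lo cells with DESeq2 size factors, against 0. Their median there was 0.16 with DESeq2 size factors, against 0.11. In the subset comparison of WT, 4 passed with DESeq2 size factors and 0 at a threshold of 1, against 2. Their median was -0.46 with TMM, -0.52 with DESeq2 size factors and -0.44 after centring, against 0.08. In that of *Cd300a-/-* libraries, 3 passed with TMM, 4 with DESeq2 size factors and 3 after centring, against 0, and the median was -0.51, -0.60 and -0.54, against 0.07. These scalings lowered every subset ratio together. Among all tested genes, the number past 0.5 without *Cd300a* in SiglecF lo cells was 2367, and it was 5178 with a mean limit of 1 TPM, 1516 with TPM over 10 in both libraries and 611 at a threshold of 1. In SiglecF hi cells it was 442, 1716 with a mean limit of 1 TPM and 46 at a threshold of 1. Between subsets it was 3873 in WT, 7317 with a mean limit of 1 TPM and 1520 at a threshold of 1, and 4212 in *Cd300a-/-*, 7619 and 1975. Other limits change the number of genes tested. The pseudocount moved none of the 30 single-gene values beyond its counting interval. TMM moved 12 and left 18, DESeq2 size factors moved 18 and left 12, and centring moved 14 and left 10. Only the WT subset ratios of *Cybb* and *Ncf4* were past 0.5 as measured, and neither changed sign with another setting. Smaller subset ratios did change sign. With TMM, *Cybb* in *Cd300a-/-* libraries went from 0.45 to -0.13 and *Ncf1* in WT from 0.36 to -0.18.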
